A study of Rattus norvegicus with 32 samples.

Results

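The anxiety cue was compared with the neutral cue in vehicle-treated rats, in 16 of the 32 nucleus accumbens shell libraries of the study. Libraries were taken by their treatment label. There were 8 labelled veh_cue (vehicle with the anxiety cue, a lemon odour that had been paired with shock) and 8 labelled veh_nocue (vehicle with the neutral cue). Every rat had the genotype WT, went through shock conditioning and met its cue again in tests of anxiety, and tissue was taken after the last shock, so both groups carry shock and testing. The other 16 libraries came from rats given cannabidiol before those tests, 8 with the anxiety cue and 8 with the neutral cue. Sex, age, strain and the make-up of the vehicle are not given in these sources, nor whether each library is 1 rat, so p-values measure only the spread between libraries. The data are counts of reads per gene from polyadenylated RNA.

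The nucleus accumbens shell is the outer part of the ventral striatum. Most of its neurons are GABAergic medium spiny neurons, which carry dopamine receptors of the Drd1 or the Drd2 type and combine dopamine with glutamatergic input from cortex, hippocampus, thalamus and amygdala. A cue that has been paired with shock comes to evoke defensive behaviour on its own. Neuronal activity induces immediate early genes such as Fos and Arc, while respiratory chain subunits, chaperones and chromatin regulators are expressed in every cell type of the tissue.

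Total counts averaged 19.13 ± 1.77 M in anxiety-cue libraries and 17.6 ± 3.56 M in neutral-cue libraries (SD, n = 8 each; exact permutation test, 2-sided, p = 0.302). Levels are given in CPM, counts scaled to library size, here with TMM factors. The striatal genes Drd1, Drd2, Adora2a, Ppp1r1b, Penk, Tac1 and Drd3 were present in all 16 libraries, but 4 libraries stood apart. Slc17a6, a vesicular glutamate transporter of thalamic and other subcortical neurons that medium spiny neurons lack, was at 20 CPM or more in anxiety-cue library 5 and in neutral-cue libraries 4, 7 and 8 (libraries are numbered in order of deposition). Drd1 was 94.8 CPM in that anxiety-cue library, against 56.6, 146 and 107 CPM in those 3 neutral-cue libraries. Transcripts of liver and fat marked others. Alb (albumin) was at 20 CPM or more in 2 anxiety-cue libraries and 0 neutral-cue libraries, and Plin1, which coats lipid droplets of adipocytes, was at 5 CPM or more in 3 anxiety-cue and 5 neutral-cue libraries. Library titles are bare numbers from 4 to 47, whose meaning the labels do not give. All 20 libraries of the study with a title number of 30 or less had high Alb or Plin1, and 0 of those above 30 did. The title run of 30 or less holds 5 vehicle libraries of each cue, with 1 library high in Slc17a6 in each. The run above 30 holds 3 of each cue, and here 2 of the 3 neutral-cue libraries were high in Slc17a6 and no anxiety-cue library was. Main effects are therefore also given within each run. These values do not part the cue from title order. In the run of 30 or less, neutral-cue titles were 9 to 19, and anxiety-cue titles were 5 and 23 to 29. All 5 neutral-cue libraries of that run were high in Plin1, against 3 with the anxiety cue, whose other 2 were high in Alb. Fewer cells of a type and less RNA per cell cannot be told apart in such bulk samples.

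**Figure D1:**
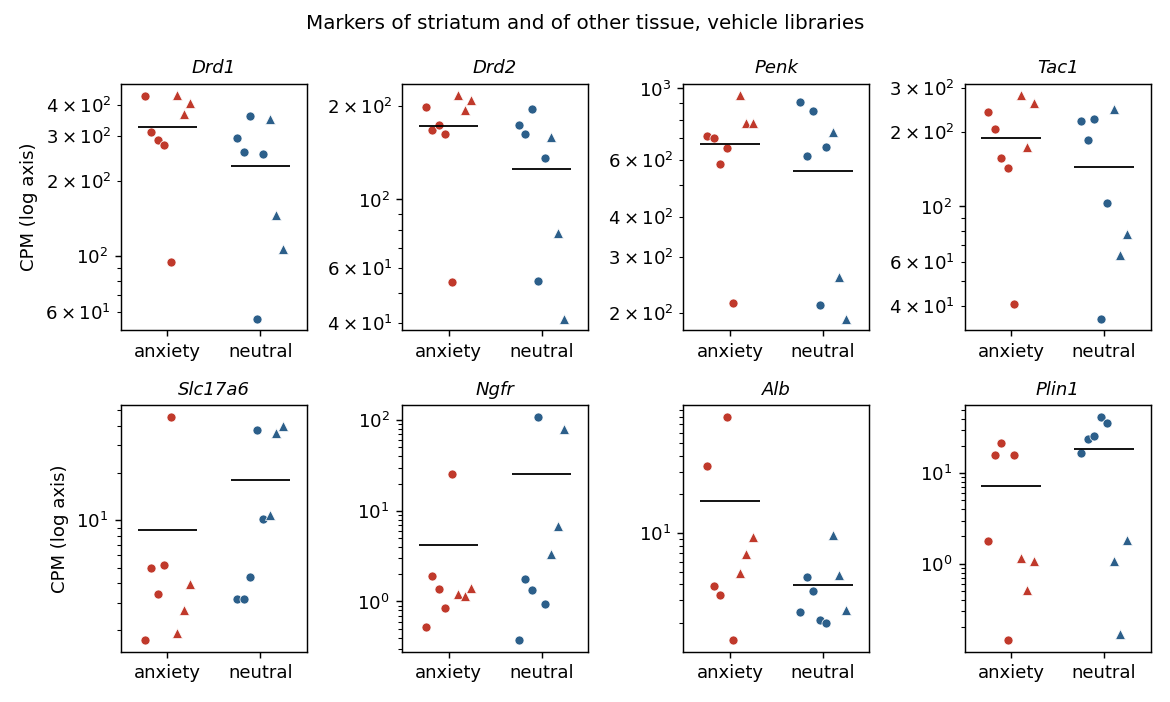
CPM of 8 marker genes in each vehicle library (log axis), anxiety cue left in red and neutral cue right in blue. Circles are title numbers of 30 or less, triangles are above 30, and lines are group means. Anxiety-cue library 5 and 3 neutral-cue libraries are low in Drd1 and high in Slc17a6.

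No gene passed the threshold. Of 17059 genes tested, 0 (0%) had an adjusted p under 0.05 in edgeR's quasi-likelihood test with Benjamini-Hochberg adjustment, the smallest adjusted p being 0.353. At an unadjusted p under 0.05 there were 2175 genes (12.7%), 1094 higher with the anxiety cue (6.41%) and 1081 lower (6.34%). DESeq2 also called 0, with 2621 of 28920 genes tested at an unadjusted p under 0.05 and a smallest adjusted p of 0.245. Its count is from more genes than the 17059 above. Voom with quality weights called 0, with 3997 of 17059 such genes and a smallest adjusted p of 0.0592, nearer the threshold. Differences were small: the median size among the 2175 genes was 0.27 on the log2 scale, and 122 exceeded 2-fold. The number at an unadjusted p under 0.05 rested on single libraries. It was 4326 without anxiety-cue library 5, 1255 without neutral-cue library 4 and 1341 without neutral-cue library 8, which are libraries high in Slc17a6. Within the title run of 30 or less it was 633 (3.63%), and within the run above 30 it was 3802 (22%). The part of tissue content in these counts was not tested. What follows are measured differences that failed the correction, unless a test is named.

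The 12 named genes with the smallest p among those higher with the anxiety cue included Mideas, Nup214 and Arid1a. Mideas, a component of a histone deacetylase complex, ranged over 42.2, 43.6 and 49.8 CPM (lowest, median, highest) in anxiety-cue libraries, against 31.9, 36.7 and 42.3 CPM in neutral-cue libraries. All 8 anxiety-cue libraries lay above the neutral-cue median and 6 above the highest neutral-cue library (log2 fold change 0.29, SE 0.06, adjusted p = 0.353 by edgeR). Nup214, a nuclear pore protein, was at 49.3, 62.3 and 64.9 CPM with the anxiety cue, against 34.8, 48.3 and 54.8 CPM with the neutral cue. Here 7 anxiety-cue libraries exceeded every neutral-cue library, and the remaining one was library 5, which is high in Slc17a6 (log2 fold change 0.34, SE 0.08). Arid1a, the DNA-binding subunit of a SWI/SNF chromatin remodeller, was at 200.5, 227 and 253 CPM with the anxiety cue, against 154, 184 and 217 CPM with the neutral cue (log2 fold change 0.30, SE 0.07). Its groups overlapped by that same library alone.

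Of the 12 higher genes, 3 are gamma protocadherins, cell-surface adhesion proteins that differ in their first exon and share the rest. Pcdhga4 was at 26.9, 30.6 and 38.0 CPM with the anxiety cue, against 19.3, 24.1 and 28.4 CPM with the neutral cue (log2 fold change 0.41, SE 0.10). Pcdhga9 was at 0.56 (SE 0.14) and Pcdhgb7 at 0.43 (SE 0.11) on the log2 scale. No source used here says how reads of the shared exons were assigned, so the split of counts among these symbols is uncertain. The remaining higher genes were Zfp526, Ahdc1, Pacs1, Gigyf2, Fbxl18 and Olfml2a. Gigyf2, which represses translation of bound mRNAs, had the smallest difference of the 12 at 0.17 (SE 0.04), with 116 to 129 CPM under the anxiety cue, against 97.4 to 120.1 CPM under the neutral cue. All 12 were higher with the anxiety cue in both title runs. Each run is a part of the libraries whose p chose these genes and the lower genes below. Agreement in sign is therefore no independent support. Over all genes, 60.9% of 16890 had the same sign in both runs. Mideas was at 0.25 in the run of 30 or less and 0.33 in the run above 30, Nup214 at 0.28 and 0.41, and Arid1a at 0.24 and 0.40.

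Most of the 12 lower genes had larger differences and a wider range among neutral-cue libraries. Rpph1, the RNA of ribonuclease P, and Rn45s, the ribosomal RNA precursor, had the largest differences, at -4.39 (SE 0.90) and -2.52 (SE 0.62) on the log2 scale. The size of both rested on neutral-cue library 8, with 35.6 CPM of Rpph1 and 1688 CPM of Rn45s. Without it they were at -1.23 and -0.75. For Rpph1, 6 neutral-cue libraries lay above every anxiety-cue library, though only library 8 exceeded 0.991 CPM. For Rn45s, 2 did. Neither RNA is polyadenylated as a rule. Mcub, a dominant-negative partner of the mitochondrial calcium uniporter, was scarce, at 0.40, 0.563 and 0.787 CPM with the anxiety cue, against 0.583, 1.02 and 2.96 CPM with the neutral cue. Here 6 neutral-cue libraries lay above every anxiety-cue library (log2 fold change -1.31, SE 0.32), and the difference was -1.12 in the title run of 30 or less and -1.68 in the run above 30. Ghdc, a gene of little-known function, was at 6.28, 8.56 and 11.9 CPM with the anxiety cue, against 9.30, 15.6 and 22.3 CPM with the neutral cue (log2 fold change -0.81, SE 0.20). Its difference was of like size in both runs, -0.79 and -0.86. The highest neutral-cue values of Ghdc were those of libraries high in Slc17a6. With all libraries high in Slc17a6 left out, its difference was smaller, at -0.52 (SE 0.21).

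Tcirg1, a subunit of the vacuolar proton pump that acidifies lysosomes, was at 9.59, 11.0 and 15.3 CPM with the anxiety cue, against 8.84, 20.5 and 25.97 CPM with the neutral cue (log2 fold change -0.75, SE 0.20). A neutral-cue library, number 6, lay below all anxiety-cue libraries and 6 lay above them. Polr2g, a subunit of RNA polymerase II, was at 18.3, 20.1 and 21.7 CPM, against 20.9, 22.1 and 28.6 CPM (log2 fold change -0.23, SE 0.06), and 7 neutral-cue libraries exceeded every anxiety-cue library. Rcn3, a calcium-binding protein of the secretory pathway, was at -0.76 (SE 0.20), and Ncf4, a subunit of the phagocyte NADPH oxidase, at -1.61 (SE 0.41) from under 3 CPM in every library. The other 4 of the 12, Arpc1b, Liph, Capg and Ucp2, are among the genes called without libraries high in Slc17a6.

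Timm10b, a chaperone of the mitochondrial inner membrane import pathway, was the 1 gene of 17059 (0.00586%) whose groups did not overlap. It was at 5.99, 7.86 and 8.57 CPM with the anxiety cue, against 8.59, 9.30 and 12.2 CPM with the neutral cue. The log2 fold change was -0.32 (SE 0.09), and it was -0.34 within the title run of 30 or less and -0.32 in the run above 30. The sign within each run follows from picking a gene whose groups do not overlap. The gap between the groups was narrow, and the adjusted p was 0.353 in edgeR's test.

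**Figure D2:**
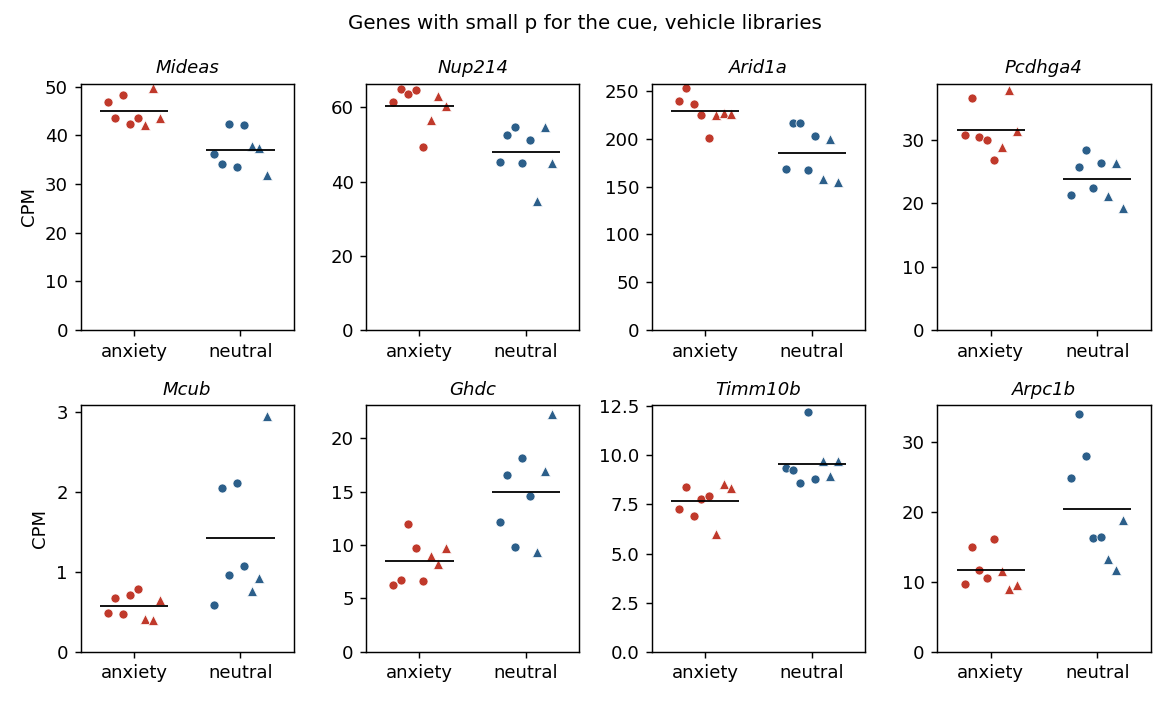
CPM of 8 genes in each vehicle library, anxiety cue left in red and neutral cue right in blue; circles are title numbers of 30 or less, triangles above 30, lines group means. Mideas, Nup214, Arid1a and Pcdhga4 are higher with the anxiety cue, and Mcub, Ghdc, Timm10b and Arpc1b are lower with wider neutral-cue ranges.

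Without the 5 libraries of the study high in Slc17a6 (7 anxiety-cue and 5 neutral-cue vehicle libraries left), edgeR called 15 of 17292 genes at an adjusted p under 0.05 (0.0867%). All 15 were lower with the anxiety cue. They are Gpnmb, Cd63, Ucp2, Arpc1b, Vsig8, Capg, Postn, Adgre1, Lcp1, Nckap1l, Liph, Myo1f, Clic1, Metrnl and Unc93b1. The last 4 fell outside the naming rule and were added after their values were seen. Several are known from phagocytes. Capg caps actin filaments in macrophages, Gpnmb is a glycoprotein of lipid-laden phagocytes, Adgre1 is the F4/80 antigen, Lcp1 bundles actin in leukocytes, Nckap1l is the blood-cell member of the WAVE complex, and Unc93b1 escorts nucleic acid-sensing toll-like receptors. Postn is a secreted matrix protein of fibroblasts, Ucp2 an inner mitochondrial membrane carrier, and Cd63 a tetraspanin of late endosomes and lysosomes.

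In this setting Capg fell by 2.39 on the log2 scale (adjusted p = 0.00695, edgeR), Gpnmb by 1.55, Postn by 2.93, Arpc1b by 1.09, Ucp2 by 0.86 and Cd63 by 0.60. Over all 16 libraries Capg was at 1.22, 2.53 and 5.01 CPM with the anxiety cue, against 2.92, 5.60 and 20.7 CPM with the neutral cue. The high values were those of neutral-cue libraries 1, 2 and 3, with 16.4, 20.7 and 16.9 CPM of Capg, while neutral-cue libraries 5 and 6 had 3.23 and 3.17 CPM. The same 3 libraries had 21.2, 27.7 and 25.9 CPM of Gpnmb, against 4.37 to 8.21 CPM in anxiety-cue libraries. They also had 70.0, 62.6 and 64.9 CPM of Col3a1, a fibrillar collagen that was at 3.07 to 15.8 CPM in anxiety-cue libraries and 2.04 to 13.5 CPM in the other 5 neutral-cue libraries. Lep, the fat-cell hormone leptin, was at 8.17, 9.41 and 9.44 CPM in these 3 libraries, against at most 4.36 CPM in anxiety-cue libraries and at most 3.04 CPM in the other neutral-cue libraries. The summed adipocyte list was 511, 487 and 519 CPM in them, within the 325 to 557 CPM of anxiety-cue libraries, and neutral-cue libraries 4 and 5 were above that at 584 and 574 CPM. Postn and Col3a1 belong to a list of 18 fibroblast and meninges genes, of which 13 lay below 0 and 5 above over all libraries. That list's median was -0.14, and -0.21 and 0.09 in the title runs of 30 or less and above 30. Of the 20 microglial genes tested, 19 lay below 0 over all libraries, and their median was -0.23 without the libraries high in Slc17a6. Tyrobp, a microglial signalling adaptor, was at 5.57, 7.57 and 4.21 CPM in neutral-cue libraries 1, 2 and 3, and Aif1 was at 5.48 to 9.73 CPM with the anxiety cue, against 5.95 to 10.0 CPM with the neutral cue. The part of fat, meningeal or microglial content in the 15 genes was not tested.

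Cd63, Ucp2, Liph and Metrnl were the 4 of the 15 genes whose kept libraries did not overlap. The 15 were chosen by p in these same libraries, so the lack of overlap is no separate support. The share of all genes without overlap was not counted for 7 against 5 libraries. Cd63 was at 51.4 to 65.1 CPM in the 7 kept anxiety-cue libraries, against 75.4 to 97.0 CPM in the 5 kept neutral-cue libraries. Of the 15, 7 were also called without the libraries high in Plin1, a setting that called 2972 genes (16.9%). With the libraries holding 10 CPM or more of Capg left out instead, 1757 genes were called (10.1%). This setting was chosen after seeing the data and removes neutral-cue libraries 1, 2 and 3. Cd63 was the only gene of the 15 called in it, lower (log2 fold change -0.45, SE 0.13, adjusted p = 0.0327 by edgeR). The rest of the 15 were below 0 but not called, with adjusted p from 0.0513 (Liph) to 0.674 (Vsig8) by edgeR. Gpnmb was at -0.27 and Capg at -0.65 there. That setting keeps 8 anxiety-cue libraries, 1 of them high in Slc17a6, against 5 neutral-cue libraries, 3 of them high in Slc17a6, and Cd63 was highest in the anxiety-cue library of that kind. Within the title runs of 30 or less and above 30, Cd63 was at -0.39 and -0.64, Ucp2 at -0.77 and -0.35, Arpc1b at -0.92 and -0.55, Gpnmb at -1.36 and -0.50, Capg at -1.96 and -1.19, and Postn at -2.85 and -0.46.

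**Figure D3:**
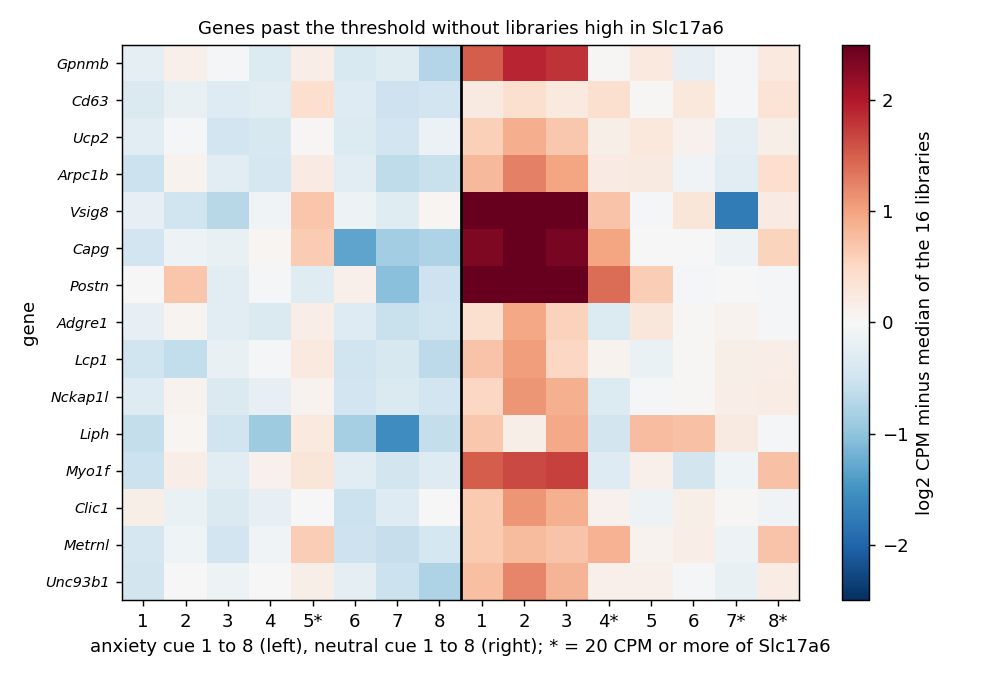
Log2 CPM minus the median of the 16 vehicle libraries (colour) for the 15 genes past the threshold without libraries high in Slc17a6, with anxiety-cue libraries 1 to 8 left of the line and neutral-cue libraries 1 to 8 right of it. Neutral-cue libraries 1, 2 and 3 are the highest for most genes, and asterisks mark the libraries left out.

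Gene groups were described by their members' counts and medians, beside all genes tested, whose median log2 fold change was 0.00037 with 50.1% above 0. None of the members named in what follows passed the threshold over all 16 libraries. Nuclear-encoded subunits of the respiratory chain were low with the anxiety cue almost throughout. Complex I oxidises NADH, and 34 of its 35 tested subunits lay below 0, 16 of them at an unadjusted p under 0.05 (background for lower genes 6.34%), with a median of -0.16. For complexes II to V all 41 lay below 0, 14 at an unadjusted p under 0.05, with a median of -0.16. Ndufa8, a complex I accessory subunit, was at 40.0, 45.5 and 65.9 CPM with the anxiety cue, against 46.3, 56.3 and 82.5 CPM with the neutral cue (log2 fold change -0.36, SE 0.11). The highest neutral-cue value was that of library 6 and the highest anxiety-cue value that of library 5, and the groups overlapped. The difference in Ndufa8 was -0.19 (SE 0.13) in the title run of 30 or less and -0.66 in the run above 30. Uqcrfs1, the Rieske protein of complex III, was at -0.21 (SE 0.07), Atp5pf of the ATP synthase at -0.27 (SE 0.09), and Cox4i1 of cytochrome oxidase at -0.17 (SE 0.08).

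The medians of complex I were -0.10 in the title run of 30 or less and -0.28 in the run above 30, and those of complexes II to V were -0.13 and -0.25. Neutral-cue library 6 weighed on them: its summed complex I level was 3232 CPM, against 2105 to 2641 CPM in anxiety-cue libraries, and without it the medians were -0.10 and -0.09. That library also held 11834 CPM of cytosolic ribosomal protein transcripts, against 6714 to 7504 CPM in anxiety-cue libraries. All 51 ribosomal protein genes tested lay below 0 (median -0.14, 8 at an unadjusted p under 0.05), with medians of -0.08 and -0.27 in the 2 title runs, and without neutral-cue library 6 the median was -0.03. Proteasome subunits lay below 0 in 30 of 32 cases (median -0.12, and -0.05 and -0.21 in the title runs), and the median was -0.06 without that library. The enzymes of the tricarboxylic acid cycle had a median of -0.09, with 2 of 21 at an unadjusted p under 0.05; leaving out neutral-cue library 4 gave -0.04 and leaving out neutral-cue library 6 gave -0.05.

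Protein-folding genes (chaperones and the unfolded protein response) were the list of cell functions with the highest share of members lower at an unadjusted p under 0.05. Of 32 tested, 27 lay below 0 and 17 were lower at an unadjusted p under 0.05, with 0 higher, and the median was -0.17. Hspa5 (BiP), the main Hsp70 chaperone of the endoplasmic reticulum, was at 384, 483 and 549.6 CPM with the anxiety cue, against 448, 591 and 636 CPM with the neutral cue. All 8 anxiety-cue libraries lay below the neutral-cue median (log2 fold change -0.27, SE 0.09, unadjusted p = 0.00414, adjusted p = 0.374 by edgeR). Calr, a lectin chaperone, was at 376, 429 and 473 CPM with the anxiety cue, against 433, 486 and 553 CPM with the neutral cue (-0.19, SE 0.06). Manf, a secreted factor induced by stress of the endoplasmic reticulum, was at 57.6, 72.1 and 78.0 CPM, against 67.2, 89.3 and 106 CPM (-0.28, SE 0.08). Dnajb11, a co-chaperone of Hspa5, was at -0.19 (SE 0.05), and Pdia6, a disulfide isomerase, at -0.21 (SE 0.06). The list's median was -0.10 in the title run of 30 or less and -0.27 in the run above 30, and it stayed between -0.21 and -0.14 when any 1 of the 16 libraries was left out.

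Some of these genes share a promoter element, the endoplasmic reticulum stress response element, here CCAAT and CCACG with any 9 bases between them, searched on both strands. It was found in 7 of the 25 chaperone-list promoters that matched the RefSeq table (28%; 250 bases before to 50 after the gene's start, build GRCr8), against 17 of 12542 promoters of genes tested (0.136%). The 7 genes are Hspa5, Hsp90b1, Calr, Canx, Dnajc3, Creld2 and Xbp1, which were chosen for this match after their values were seen. They are among the 17. The share with a match depends on sequence and on how the list was made, so it says nothing about the cue. The sequences below are the 250 bases before the start of 4 of them, from 5′ to 3′ on the gene's strand, with each match in capitals, shown because these genes of the list share the element. Hspa5 lies at chr3:38452766-38453015 on the plus strand, Calr at chr19:40213117-40213366 on the plus strand, Xbp1 at chr14:84604373-84604622 on the plus strand and Hsp90b1 at chr7:23012294-23012543 on the minus strand.
Hspa5: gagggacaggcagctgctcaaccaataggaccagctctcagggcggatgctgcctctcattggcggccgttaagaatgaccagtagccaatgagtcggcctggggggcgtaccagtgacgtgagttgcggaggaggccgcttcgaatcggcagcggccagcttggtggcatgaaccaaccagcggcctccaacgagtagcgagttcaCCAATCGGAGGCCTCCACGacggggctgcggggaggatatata
Calr: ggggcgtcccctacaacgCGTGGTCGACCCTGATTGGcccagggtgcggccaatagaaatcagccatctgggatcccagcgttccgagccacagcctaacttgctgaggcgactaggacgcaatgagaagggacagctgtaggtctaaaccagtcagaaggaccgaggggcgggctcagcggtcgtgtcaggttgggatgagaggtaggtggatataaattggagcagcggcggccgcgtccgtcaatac
Xbp1: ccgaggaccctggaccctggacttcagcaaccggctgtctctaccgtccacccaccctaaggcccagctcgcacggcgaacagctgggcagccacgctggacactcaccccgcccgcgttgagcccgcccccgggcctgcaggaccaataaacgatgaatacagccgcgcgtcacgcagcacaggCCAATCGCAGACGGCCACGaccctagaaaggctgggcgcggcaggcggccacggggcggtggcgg
Hsp90b1: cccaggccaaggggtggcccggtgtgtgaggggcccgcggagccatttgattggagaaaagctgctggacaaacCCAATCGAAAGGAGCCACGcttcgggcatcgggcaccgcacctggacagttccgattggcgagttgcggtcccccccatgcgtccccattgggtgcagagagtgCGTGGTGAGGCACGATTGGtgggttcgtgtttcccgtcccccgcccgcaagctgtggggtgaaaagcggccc

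The match ends 24 bases before the start in Hspa5 and 46 bases before it in Xbp1, lies on the opposite strand in Calr, and occurs in 2 copies in Hsp90b1. All 7 genes lay below 0, and 4 of them, Hspa5, Calr, Xbp1 (-0.16, SE 0.07) and Dnajc3 (-0.17, SE 0.08), were at an unadjusted p under 0.05. Hsp90b1, with the pair of copies, was at 425, 471 and 549 CPM with the anxiety cue, against 405, 508 and 552 CPM with the neutral cue (-0.05, SE 0.06). Creld2 was at -0.09 (SE 0.09), and Canx at -0.20 (SE 0.10). Of the 10 other genes tested whose promoter held a match, 4 lay below 0 and 0 were lower at an unadjusted p under 0.05. In the whole chaperone list, with or without a match, 27 of 32 lay below 0. There 17 (53.1%) were lower at an unadjusted p under 0.05, so 4 of 7 is near the list's own share. List members without a match were not set apart. A match is a string of letters and not a measured binding site.

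Genes of lipid synthesis and redox defence also lay mostly below 0. In cholesterol synthesis 21 of 22 did, 7 at an unadjusted p under 0.05, with a median of -0.22. Fdft1 (squalene synthase) was at 48.1, 50.3 and 74.4 CPM with the anxiety cue, against 46.2, 59.1 and 123 CPM with the neutral cue (-0.40, SE 0.17), and Cyp51 and Pmvk of the same pathway were at -0.28 (SE 0.11) and -0.26 (SE 0.10). The summed level of the list was 1069.9 to 1336 CPM in anxiety-cue libraries, against 1038 to 1959.7 CPM in neutral-cue libraries, the highest being library 4, which is high in Slc17a6. Without library 4 the list's median was -0.11. Scd2, the main brain desaturase that makes oleate, was at -0.24 (SE 0.08). Of 29 antioxidant genes 25 lay below 0 and 10 were at an unadjusted p under 0.05 (median -0.15, and -0.07 and -0.31 in the title runs), among them Prdx5, a mitochondrial peroxiredoxin, at -0.23 (SE 0.08) and Txn1 (thioredoxin) at -0.27 (SE 0.09).

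Chromatin and splicing genes lay mostly above 0. Of 60 genes of chromatin remodelling and histone methylation, 48 lay above 0 and 17 were higher at an unadjusted p under 0.05 (background for higher genes 6.41%), with 0 lower and a median of 0.09. Beside Arid1a these included Chd4, a helicase of the NuRD complex, at 253, 306 and 331 CPM with the anxiety cue, against 209.8, 255 and 315 CPM with the neutral cue (0.23, SE 0.07), and Ezh1, a histone H3 methyltransferase, at 0.17 (SE 0.05). Of 40 genes of histone acetylation, 27 lay above 0, 9 at an unadjusted p under 0.05 and 1 lower, with a median of 0.08. Sin3a, a scaffold of deacetylase complexes, was at 0.23 (SE 0.07). In the spliceosome list 47 of 63 lay above 0 (median 0.07), with Prpf8 of the catalytic core at 0.20 (SE 0.07) and the neuronal splicing factor Nova2 at 0.24 (SE 0.09). Medians of the 3 lists were 0.05, 0.04 and 0.01 in the title run of 30 or less and 0.13, 0.11 and 0.13 in the run above 30. TMM scaling is relative, so a set of genes above 0 cannot be told from a fall of the others in total RNA.

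Genes of striatal neurons had larger medians. Of 29 medium spiny neuron genes 28 lay above 0 (median 0.44), but 1 was at an unadjusted p under 0.05. Drd1 was at 94.8, 340.1 and 439 CPM with the anxiety cue, against 56.6, 258 and 362 CPM with the neutral cue (log2 fold change 0.51, SE 0.29). Bcl11b, a transcription factor of medium spiny neurons, was at 0.44 (SE 0.20). Of 47 genes of striatal cAMP and calcium signalling, 46 lay above 0 (median 0.36). The septal, pallidal and other subcortical list went the other way, with 23 of 27 below 0 and a median of -0.54, and its summed level was 527 to 977 CPM in anxiety-cue libraries, against 593 to 1259 CPM in neutral-cue libraries. Its member Ngfr, the neurotrophin receptor of basal forebrain cholinergic neurons, was at 25.2 CPM in anxiety-cue library 5, against 109.6 and 79.2 CPM in neutral-cue libraries 4 and 8, and at most 6.77 CPM elsewhere. Within the title run of 30 or less, where each group has 1 such library, the medians were 0.08 for medium spiny neurons, 0.06 for cAMP signalling and -0.20 for the subcortical list. In the run above 30 they were 0.87, 0.77 and -1.17. The part of dissection in these values was not tested.

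Receptor and release genes went both ways. Grin2b, an NMDA receptor subunit, was at 217, 415 and 477 CPM with the anxiety cue, against 160.5, 305 and 403 CPM with the neutral cue (0.40, SE 0.15), and the lowest values of both groups were from libraries high in Slc17a6. Grid1, a delta glutamate receptor, was at 74.1, 79.6 and 82.6 CPM, against 66.2, 70.4 and 77.4 CPM (0.16, SE 0.06), and it was 0.15 in both title runs. Syt7, a calcium sensor of vesicle release, was at 0.26 (SE 0.08), and Sncb (beta-synuclein), a presynaptic protein, was at -0.59 (SE 0.26), its highest values lying in libraries high in Slc17a6. The synaptic vesicle list had a median of 0.014, with 3 of 44 higher and 2 lower at an unadjusted p under 0.05. The list of glutamate and GABA receptors had a median of 0.09 with 6 of 40 at an unadjusted p under 0.05, all higher, and the median was 0.04 without anxiety-cue library 3.

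Genes of neuronal activity and stress hormones were spread around 0. Fos was at 6.85, 12.1 and 23.5 CPM with the anxiety cue, against 10.3, 12.9 and 24.2 CPM with the neutral cue (-0.18, SE 0.28). Arc was at 17.8, 37.0 and 97.3 CPM, against 12.6, 42.3 and 70.2 CPM (0.36, SE 0.40; 0.11 with anxiety-cue library 1 left out, 0.56 with neutral-cue library 3 left out), and Egr1 and Npas4 were at 0.39 (SE 0.26) and 0.20 (SE 0.37). Their groups overlapped nearly throughout, and 2 of 33 immediate early genes were at an unadjusted p under 0.05 (median 0.05). The highest Fos of each group was in a library high in Slc17a6, anxiety-cue library 5 and neutral-cue library 8. Arc and Egr1 were lowest in such libraries, at 17.8 and 37.0 CPM in anxiety-cue library 5. In neutral-cue libraries 4, 7 and 8 Arc was at 17.1, 12.6 and 14.3 CPM and Egr1 at 25.4, 36.9 and 42.4 CPM. The part of tissue content in these values was not tested. Of 26 glucocorticoid-responsive genes 3 were at an unadjusted p under 0.05, all higher, and the median was 0.0047; Nr3c2, the mineralocorticoid receptor, was at 0.33 (SE 0.12). In the endocannabinoid system, Dagla, which makes 2-arachidonoylglycerol, was at 93.4, 116 and 142 CPM with the anxiety cue, against 81.9, 91.4 and 119 CPM with the neutral cue (0.25, SE 0.09), and Abhd12, which hydrolyses it, at -0.18 (SE 0.05). The median of the 18 genes was -0.07.

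Among glia, astrocyte genes had a median of -0.15 (17 of 20 below 0, 6 at an unadjusted p under 0.05). Aldoc, an astrocytic glycolytic enzyme, was at 541, 582 and 766 CPM with the anxiety cue, against 601, 750.3 and 941 CPM with the neutral cue (-0.29, SE 0.09), and S100b was at -0.26 (SE 0.10). Of 20 microglial genes 19 lay below 0 (median -0.16), with Tyrobp, a signalling adaptor, at -0.49 (SE 0.16), yet the median was 0.00093 in the title run of 30 or less and -0.49 in the run above 30. Oligodendrocyte genes behaved alike, at 0.05 and -0.41 in those runs, and Mbp was at -0.21 (SE 0.15). Endothelial and mural genes had a median of 0.11 with 0 of 23 at an unadjusted p under 0.05 in edgeR's test, and Pecam1 was at 0.17 (SE 0.09). The hepatocyte list had the largest median, 2.47, with 9 of 15 tested members higher at an unadjusted p under 0.05. Fgb and Fgg, chains of fibrinogen, were at 3.36 (SE 1.22) and 3.42 (SE 1.3), from at most 53.7 and 22.0 CPM with the anxiety cue, against 2.005 and 1.18 CPM with the neutral cue. Without the libraries high in Alb that median was 0.15. The adipocyte list had a median of -0.49 with 0 of 14 at an unadjusted p under 0.05 in edgeR's test, and leaving out anxiety-cue library 3 gave -0.82, while leaving out neutral-cue library 4 gave -0.21. The summed adipocyte level was 325 to 557 CPM with the anxiety cue, against 211 to 584 CPM with the neutral cue.

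**Figure D4:**
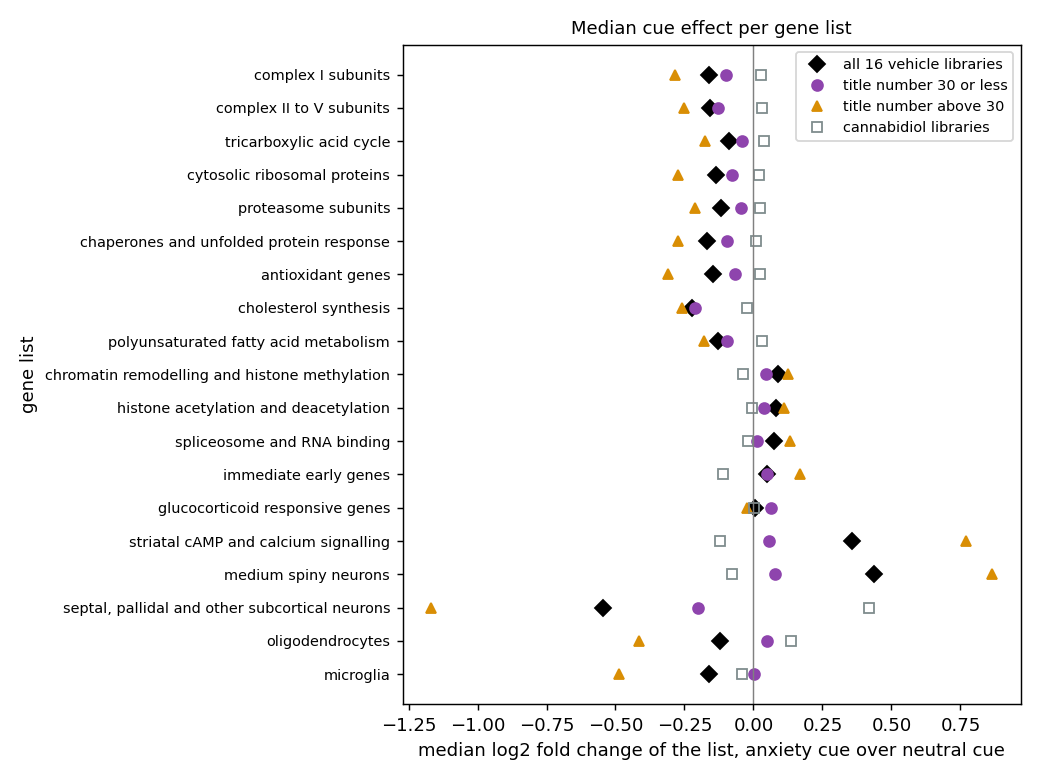
Median log2 fold change of each gene list (anxiety cue over neutral cue) in all 16 vehicle libraries (diamonds), in the vehicle libraries with a title number of 30 or less (circles) or above 30 (triangles), and in the cannabidiol libraries (squares). Of the lists plotted, the subcortical, medium spiny neuron and striatal cAMP lists differ most between the runs, while the respiratory chain and chaperone lists lie below 0 in both.

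The same cue comparison in cannabidiol libraries shares no library with the one above. It gave 0 genes at an adjusted p under 0.05 in edgeR's test and 672 at an unadjusted p under 0.05 (3.94%). Of the 24 genes with the smallest p in vehicle libraries, 22 had the opposite sign there, with 4 at an unadjusted p under 0.05, while 35.9% of all genes and 23.7% of those at an unadjusted p under 0.05 had the same sign in both. Across genes the log2 fold changes of the cue in vehicle and in cannabidiol libraries had a Pearson r of -0.45 over 17059 genes, which are not independent replicates. The test of the difference between these effects (the interaction) called 0 genes and put 2353 (13.8%) at an unadjusted p under 0.05. In cannabidiol libraries Mideas was at -0.04, Nup214 at -0.0013 and Arid1a at -0.02, while Pcdhga4 was at -0.21 (unadjusted p = 0.0449), Pcdhgb7 at -0.12 and Gigyf2 at -0.08. Mcub was at 0.92 (unadjusted p = 0.00684), Capg at 1.03 (unadjusted p = 0.0344) and Tcirg1 at 0.44 (unadjusted p = 0.0323) there. A cannabidiol library with the anxiety cue was among the 5 high in Slc17a6 and among the 4 with 10 CPM or more of Capg. Another of that group, library 7, had 19.6 CPM of Slc17a6, just under the threshold, and 179 CPM of Drd1. Cannabidiol neutral-cue library 6 had 1756 CPM of the summed cortical pyramidal neuron list, against at most 648 CPM in any other library. Its summed subcortical list was the lowest of the study, at 464 CPM. The part of these libraries in the values was not tested. List medians in cannabidiol libraries were 0.03 for complex I, 0.01 for chaperones, -0.04 for chromatin remodelling and 0.42 for the subcortical list.

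**Figure D5:**
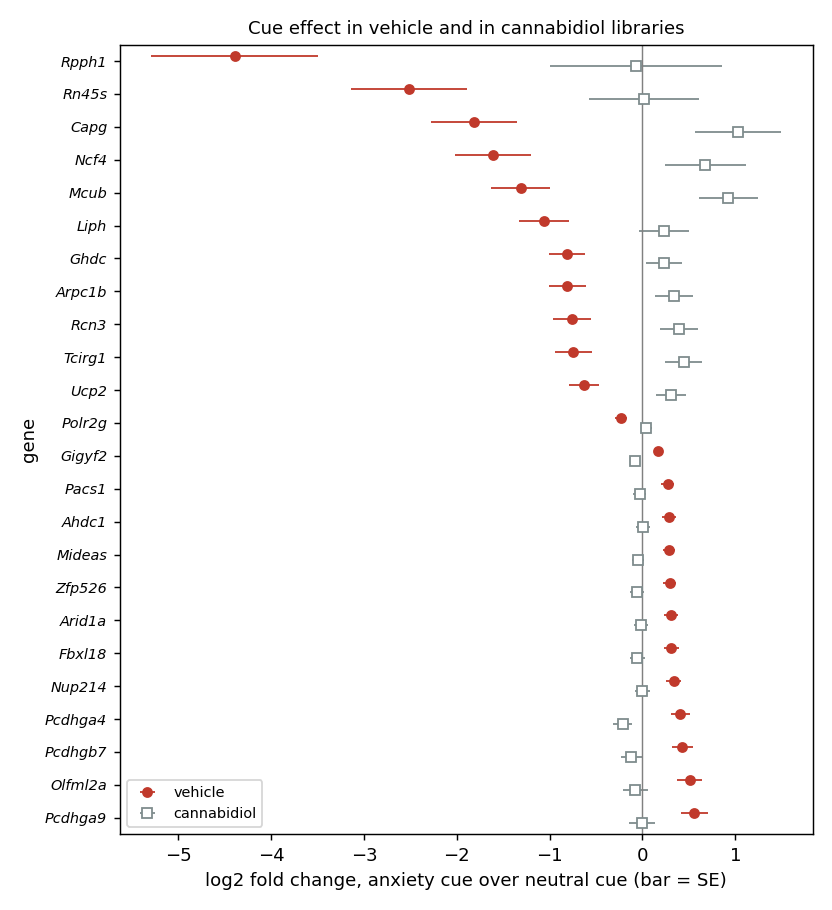
Log2 fold change (anxiety cue over neutral cue) with its SE in vehicle (filled circles) and cannabidiol (open squares) libraries, for the 24 genes with the smallest p in vehicle libraries. The vehicle values chose the genes; 22 of the 24 cannabidiol values have the opposite sign.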

How the data were processed

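Polyadenylated RNA of 32 libraries was measured as counts of reads per gene, deposited by the authors as raw whole numbers in a table of 34322 symbols. STAR, featureCounts and DESeq2 are named in the submitters' processing notes without versions, beside 2 builds (Rnor_6.0, mRatBN7.2) whose use is not said. The strand setting is not given in these sources; overlapping genes and near-identical copies have uncertain counts. Of the symbols 79.3% matched RefSeq names of GRCr8, used for names and promoters.

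All 32 libraries were fitted in edgeR 4.0.16 (R 4.3.3) with a mean per group: filterByExpr left out 17263 genes, TMM scaled the rest, and the contrast was anxiety cue minus neutral cue within vehicle, adjusted over 17059 genes. The log2 CPM used a prior count of 2. The 56 within-group library pairs differed by 8.75 to 112 chi-square per degree of freedom, so none is a repeat deposit. Alternatives used DESeq2 1.42.0, limma 3.58.1 and other filters, terms and library sets. The scripts were tested on simulated data. Members and lists were chosen with earlier results of these data known. Named genes were the 12 higher and 12 lower with the smallest p, the 10 of largest size per direction, 3 per list by p, those past the threshold without doubted libraries, those with separate groups and a preset group; not all are printed. Ttr, protein-coding mitochondrial genes and some single members of lists are not reported here.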

Additional observations from a re-analysis of the deposited data

Results flagged for a closer look

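Among the genes named above, 17 of 182 groups of 8 libraries held a library whose distance from the next, relative to the group's range on the log2 scale, passed Dixon's 95% critical value for 8 values; chance flags about 1 in 20. Anxiety-cue library 5, the 1 anxiety-cue library high in Slc17a6, accounted for 12 of them. It was the highest anxiety-cue library for Slc17a6 (45.7 CPM, next 5.18), Ngfr (25.2, next 1.90), Cd63 (98.7, next 65.1), Metrnl (7.14, next 4.37) and Fdft1 (74.4, next 54.7). It was the lowest for Drd1 (94.8 CPM, next 276), Bcl11b (109, next 239), Grin2b (217, next 339), Nova2 (116, next 147), Syt7 (307, next 373), Chd4 (253, next 292) and Nr3c2 (44.5, next 63.6).

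Neutral-cue library 8 was the highest of its group for Rpph1 (35.6 CPM, next 0.991). Neutral-cue library 4 was the highest for Timm10b (12.2 CPM, next 9.71) and Pmvk (43.9 CPM, next 34.7). Neutral-cue library 6 was the lowest for Nup214 (34.8 CPM, next 45.0), and neutral-cue library 2 the lowest for Hsp90b1 (405 CPM, next 485).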

How the results depend on the processing

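The count of called genes was 0 under the other scaling, DESeq2, both other filters, robust estimation, the 16 vehicle libraries alone, quality weights, each added term, either title run, without libraries high in Alb, and with each of the 16 libraries left out (0 to 0). It was 15 without libraries high in Slc17a6 and 19 with that level taken without the TMM factor, all lower. It was 2972 without libraries high in Plin1 (1370 higher, 1602 lower), which leaves 5 anxiety-cue libraries and 3 neutral-cue libraries, 2 of them high in Slc17a6, and 1757 without libraries high in Capg (899 higher, 858 lower), which leaves 1 of 8 anxiety-cue libraries and 3 of 5 neutral-cue libraries high in Slc17a6; the cause was not tested. Genes at an unadjusted p under 0.05, 2175 in the report, numbered 1288 in the vehicle libraries alone, 3997 with quality weights, 5772, 886 and 5434 without libraries high in Plin1, Alb or Capg, 981 with the subcortical list as a term, 633 and 3802 in the title runs, and 1255 to 4326 with 1 library left out. With a term for title numbers above 20, 2787 genes were at an unadjusted p under 0.05. The smallest adjusted p was then 0.0926 in edgeR's test. It was 0.0726 by edgeR without anxiety-cue library 5 and 0.0592 by voom with quality weights. Both title-run splits, the second Slc17a6 measure and the Capg setting were chosen after seeing the data.

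Of 3082 values for 91 genes, 13 changed sign. Without libraries high in Plin1 these were Creld2 (0.0067) and Col3a1 (0.28); in the title run of 30 or less Slc17a6 (0.036) and Fos (0.15); in the run above 30 Col3a1 (0.18). With the subcortical term they were Arc (-0.15) and Npas4 (-0.30), with Alb and Plin1 as terms Fgg (-0.026) and Plin1 (0.15), and with a term for title numbers above 20 Plin1 (0.63) and Lep (0.15). Npas4 was at -0.049 without libraries high in Alb, and at -0.025 to 0.32 with 1 library left out, below 0 without anxiety-cue library 1. No paired analysis was possible because title numbers are unique to a library and replicate numbers only follow the order of deposition.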
